A study of Mus musculus with 42 samples.

Results

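The genes described here encode the nuclear subunits of the oxidative phosphorylation machinery, the NADH dehydrogenase (Nduf), succinate dehydrogenase (Sdh), ubiquinol-cytochrome c reductase (Uqcr), cytochrome c oxidase (Cox4 to Cox8) and ATP synthase (Atp5) symbols. They were chosen by symbol alone, and 84 symbols matched after 4 pseudogene symbols had been left out. Every gene had to reach 10 in 3 or more of the 42 libraries, and 82 of the 84 did, among 16613 genes that did so in the whole table. Cox8c, listed at 0 in every library, and Cox7b2, with a highest value of 3.46, did not. Closest to the limit among the 82, though well inside it, were Cox8b with 28 libraries of at least 10, Cox4i2 with 30, Cox6b2 with 33 and Cox6a2 with 36, while 78 genes reached 10 in all 42. The 82 genes comprised 35 of complex I, 4 of complex II, 8 of complex III, 17 of complex IV, 15 of complex V and 3 that encode associated factors (Cox7a2l, Atp5s and Atp5sl).

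RNA was sequenced from tumours of Pan02, a mouse pancreatic adenocarcinoma cell line, grown under the skin of the flank. The protocol, which covers several cell lines, names wild-type C57BL/6J and Balb/c hosts, and Pan02 is of C57BL/6 origin. The mice received BXCL701, an oral inhibitor of DPP4, DPP8, DPP9 and fibroblast activation protein, which are serine peptidases, at 20 ug per mouse daily by gavage, or vehicle (PBS). The BXCL701 arm held 33 tumours in 11 groups, with day 1 sampled at 1, 8 and 16 h and days 7 and 14 at 0, 1, 8 and 16 h. The vehicle arm held 9 tumours in 3 groups, taken at 0 h on days 1, 7 and 14. Each of the 14 groups held 3 tumours from separate mice, and all carried the same cell line in hosts with an intact immune system. The mice's age is not given in the sources used here. Vehicle tumours of other hours were not analysed here, so treatment and hour of harvest cannot be told apart away from 0 h.

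Oxidative phosphorylation takes place in the inner mitochondrial membrane. Complexes I and II pass electrons from NADH and succinate to ubiquinone, complex III passes them on to cytochrome c, and complex IV hands them to oxygen, while complexes I, III and IV pump protons that complex V uses to make ATP. A few catalytic subunits are encoded by mitochondrial DNA. The nuclear genes encode the other catalytic subunits and a larger set of small accessory subunits, and several complex IV subunits exist in an isoform found in most tissues and another found mainly in heart and skeletal muscle.

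Values of the deposited gene table summed to 19133149 to 26633378 per library. They were not whole numbers, so they were taken as estimated reads scaled per library, the read depth behind them is unknown, and no counting interval is given. Levels and differences between tumours are on the log2(value + 1) scale, which understates changes of low genes, and levels between genes are given as log2 FPKM, which is per length. Of the markers of a pancreatic cancer epithelium, Krt8 had log2 values of 13.25 to 15.49 and Krt18 of 12.16 to 14.95 over the 42 tumours, Krt19 had 8.55 to 11.28, and Epcam was low at 1.42 to 8.08. The mean level of 14 skeletal muscle genes ran between 2.01 and 13.96 over the tumours. In these bulk samples, fewer cells of a type and less RNA per cell cannot be told apart.

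The oxidative phosphorylation genes together held 0.686% to 1.38% of the library sum in each tumour. Their median level was 7.13 log2 FPKM, each gene taken at its median over the 42 tumours, against 2.88 for all 16613 genes. Complex III genes had a median of 8.20 log2 FPKM, complex V genes 7.94, complex IV genes 7.82, complex I genes 6.86 and complex II genes 6.65. The ranges of the complexes overlapped. The highest gene of all was Atp5b, the catalytic beta subunit of ATP synthase, at 10.65 log2 FPKM. It was followed by Cox8a at 9.70 and Cox6a1 at 9.59, the isoforms of their complex IV subunits that most tissues use. Cox4i1, the usual form of the largest nuclear-encoded complex IV subunit, lay at 9.44 log2 FPKM.

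Within complex I, the accessory subunits Ndufb9 (8.54 log2 FPKM) and Ndufa7 (8.31) lay highest and the accessory subunits Ndufa11 (4.64) and Ndufb4 (4.75) lowest. Ndufs1, the iron-sulphur subunit that receives electrons from the NADH-binding flavoprotein, was also low at 5.05. The 4 complex II genes lay within a narrow range, with the membrane anchors Sdhc at 6.84 and Sdhd at 6.64 and the catalytic subunits Sdha at 6.65 and Sdhb at 6.55. In complex III, the small subunits Uqcr10 (9.11) and Uqcrh (8.42) lay highest, and the Rieske iron-sulphur protein Uqcrfs1 (6.03) and the core protein Uqcrc2 (6.32) lowest. In complex V, Atp5l, the small membrane subunit g, followed Atp5b at 9.16, and Atp5g2, encoding a form of the c-ring subunit, was lowest at 6.29. Of the associated factors, Cox7a2l, described as a factor for supercomplexes of complexes III and IV, lay at 8.15, Atp5sl at 3.99 and Atp5s at 1.85.

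The lowest complex IV genes were the isoforms with restricted expression. Cox4i2, the isoform known from lung, had a median of 0.65 log2 FPKM (-1.97 to 2.37), and Cox6b2, known from testis, had 1.42 (0.18 to 2.74). The muscle isoform Cox8b had a median of 2.88 and a highest value of 7.33, and was listed at 0 in 3 of the 42 tumours. The muscle isoform Cox6a2 ran from -3.74 to 7.75 log2 FPKM, a wider range than that of any gene that was above 0 in every tumour.

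**Figure D1:**
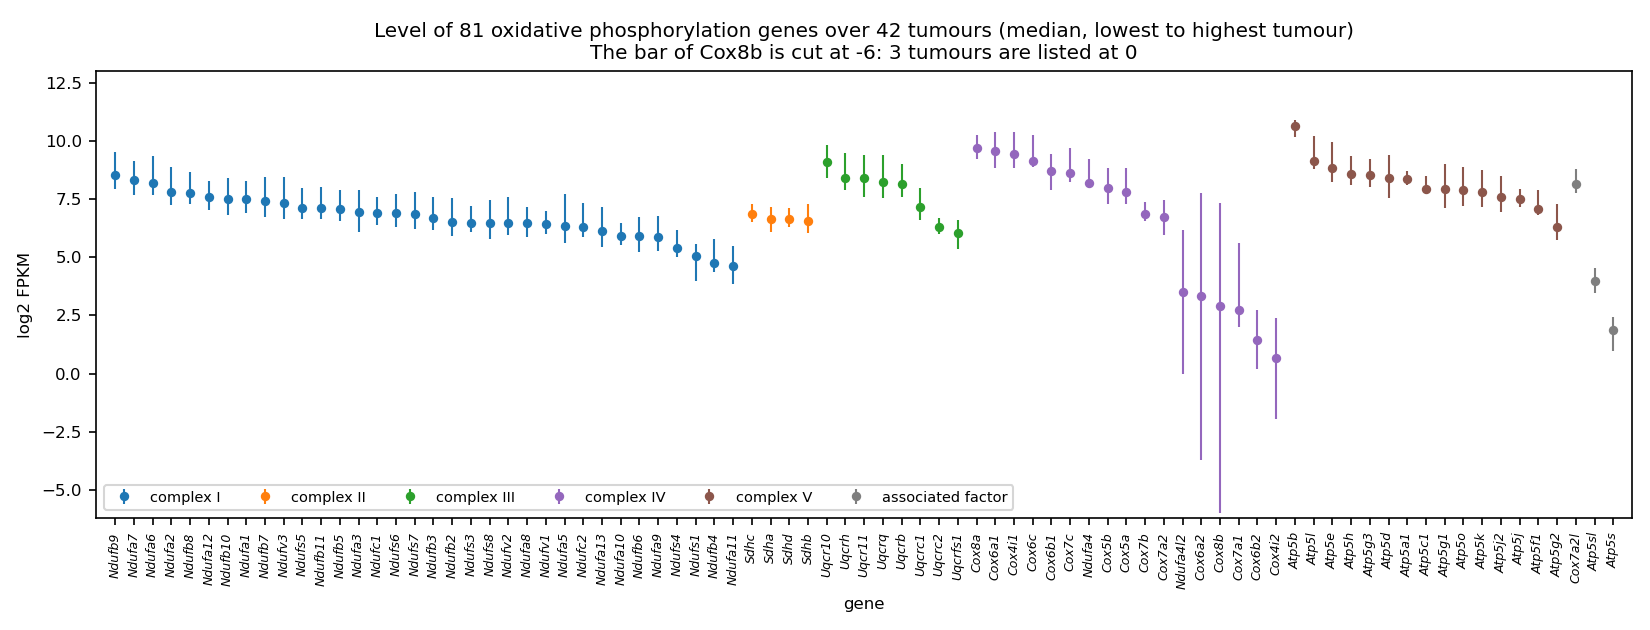
Level of 81 of the 82 genes in log2 FPKM, with the median over 42 tumours as a point and the lowest to highest tumour as a bar, coloured by complex and ordered by level within it. Atp5b lies highest at 10.65, and the isoforms Ndufa4l2, Cox6a2, Cox8b, Cox7a1, Cox6b2 and Cox4i2 lie apart from the rest of complex IV, with Cox8b's bar cut at the lower edge because 3 tumours are listed at 0.

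The genes varied little between tumours, apart from those isoforms. Over the 42 tumours, the SD of the log2 level had a median of 0.34 for the 82 genes, against 0.42 for all genes, and 76 of the 82 lay below 0.5. The steadiest were Uqcrc2 (SD 0.12), Sdha (0.16), the ATP synthase alpha subunit Atp5a1 (0.16), Sdhd (0.18) and Uqcrfs1 (0.19). The most variable were Cox6a2 (2.15), Cox8b (1.89), Ndufa4l2 (1.49), a paralogue of Ndufa4 known to be induced by low oxygen, Cox4i2 (0.94) and Cox7a1 (0.69), another muscle isoform. Complex II had the lowest median SD at 0.19, against 0.33 to 0.39 in the other 4 complexes.

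What variation there was ran in parallel. Over the 3321 pairs of genes, the median Pearson correlation across the 42 tumours was 0.81, and 76.3% of pairs exceeded 0.5, a description over genes that share the same libraries. The median deviation of the 82 genes from their own means was computed for each tumour as a summary. In BXCL701 tumours it ran from -0.31 to 0.26 on day 1, from -0.68 to 0.88 on day 7 and from -0.25 to 0.48 on day 14. In vehicle tumours it was -0.05, 0.85 and 0.06 on day 1, -0.05, -0.57 and -0.23 on day 7, and 0.17, 0.80 and 0.04 on day 14. Single tumours therefore stood well above the others of their group: vehicle day 1 replicate 2, vehicle day 14 replicate 2, BXCL701 day 7 8 h replicate 3 and BXCL701 day 14 1 h replicate 1. Replicate numbers here are names given in record order and do not pair tumours.

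**Figure D2:**
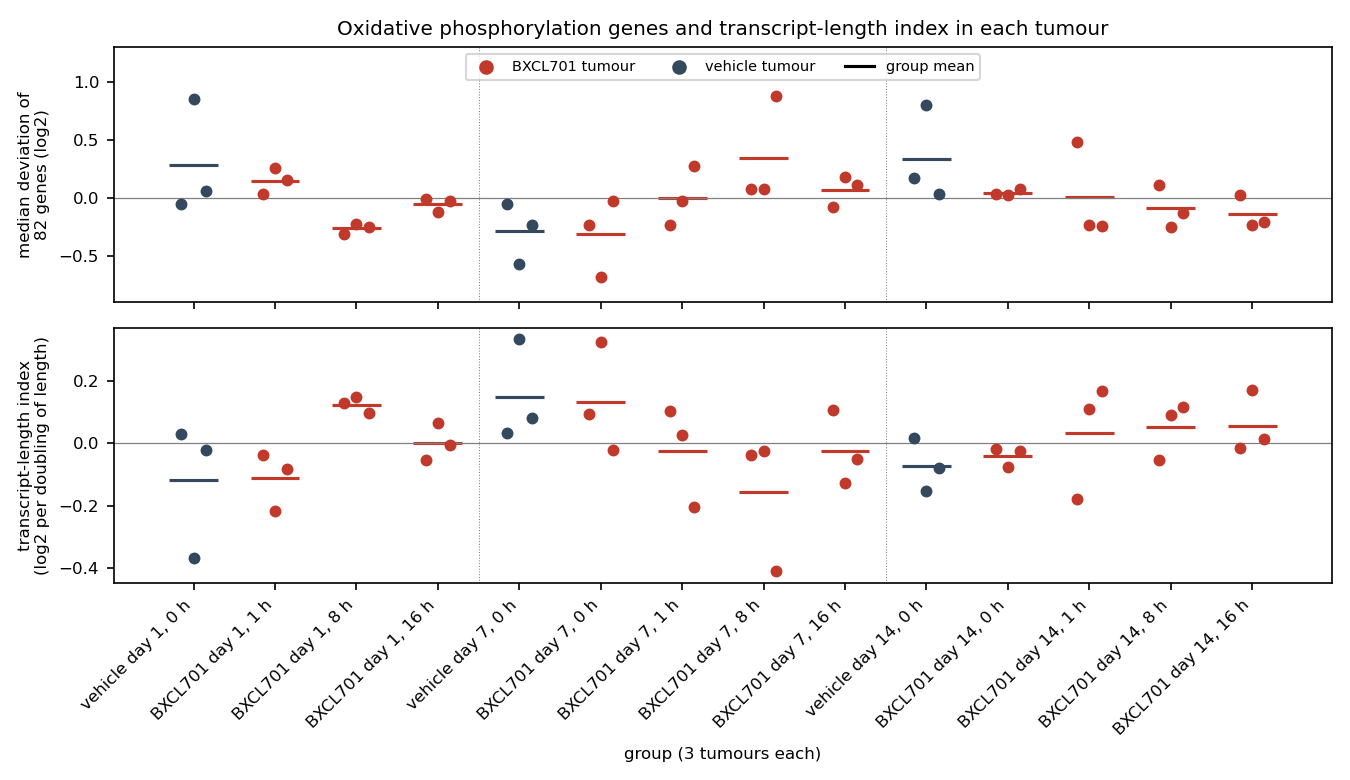
Upper panel, median deviation of the 82 genes from their own means (log2) in each tumour. Lower panel, the transcript-length index of the same tumours (log2 per doubling of exon length), with 3 points and a mean line per group, red for BXCL701 and dark for vehicle. BXCL701 day 7 8 h replicate 3 (0.88 above, -0.41 below) and vehicle day 1 replicate 2 (0.85 above, -0.37 below) are high above and low below. Vehicle day 14 replicate 2, at 0.80 above, lies less low below, as the index of its group runs from -0.15 to 0.02.

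This shared variation moved with transcript length. The exons of the 82 genes had a median length of 1578 bases (360 to 8086), against 4039 for all genes, and 72 of the 82 were shorter than that. For each tumour a transcript-length index was computed by regressing, over 11414 other genes, the departure of a gene from its average across tumours on the log2 of its exon length, and taking the slope. It is negative where short transcripts ran high. The median deviation of the 82 genes had a Pearson correlation of -0.93 and a Spearman correlation of -0.92 with this index over the 42 tumours, and of -0.89 (Pearson) without the 2 tumours of most extreme index. Both come from the same libraries. The deviation also followed that of the 77 mitochondrial ribosomal protein genes (Pearson 0.98, Spearman 0.97). With the 13 mitochondrially encoded subunits its correlation was weaker and negative (Pearson -0.48, Spearman -0.33, and -0.33 by Pearson without the 2 farthest tumours). Of single genes, 71 of 82 (86.6%) had a Pearson correlation below -0.5 with the index, against 22.2% of all genes. No batch is given in the labels or headers, so none could be examined.

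The relation was close for some subunits and absent for others. Cox6b1, the usual form of a complex IV subunit at the cytochrome c side, had r = -0.97 and rho = -0.93 with the index (-0.95 without the 2 farthest tumours). The ATP synthase central-stalk subunit Atp5d and the complex I accessory subunit Ndufb7 each had r = -0.95. Cox7c, a small accessory subunit of complex IV, had r = -0.69, and Ndufc2, a membrane-arm subunit of complex I, had r = -0.54 (permutation p = 0.00063, adjusted p = 0.00138 over 164 relations). Ndufs1, whose exons span 8086 bases, ran the other way with r = 0.69 and rho = 0.61 (permutation p = 1e-05, the smallest that 100000 permutations can give; 0.52 without the 2 farthest tumours). Sdha (r = 0.18, permutation p = 0.263), Uqcrfs1 (r = 0.06, p = 0.698) and Atp5s (r = 0.21, p = 0.177) passed no threshold. In all, 76 of the 82 genes had an adjusted p under 0.05. After the index had been removed from each gene, the median correlation between gene pairs was 0.48.

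**Figure D3:**
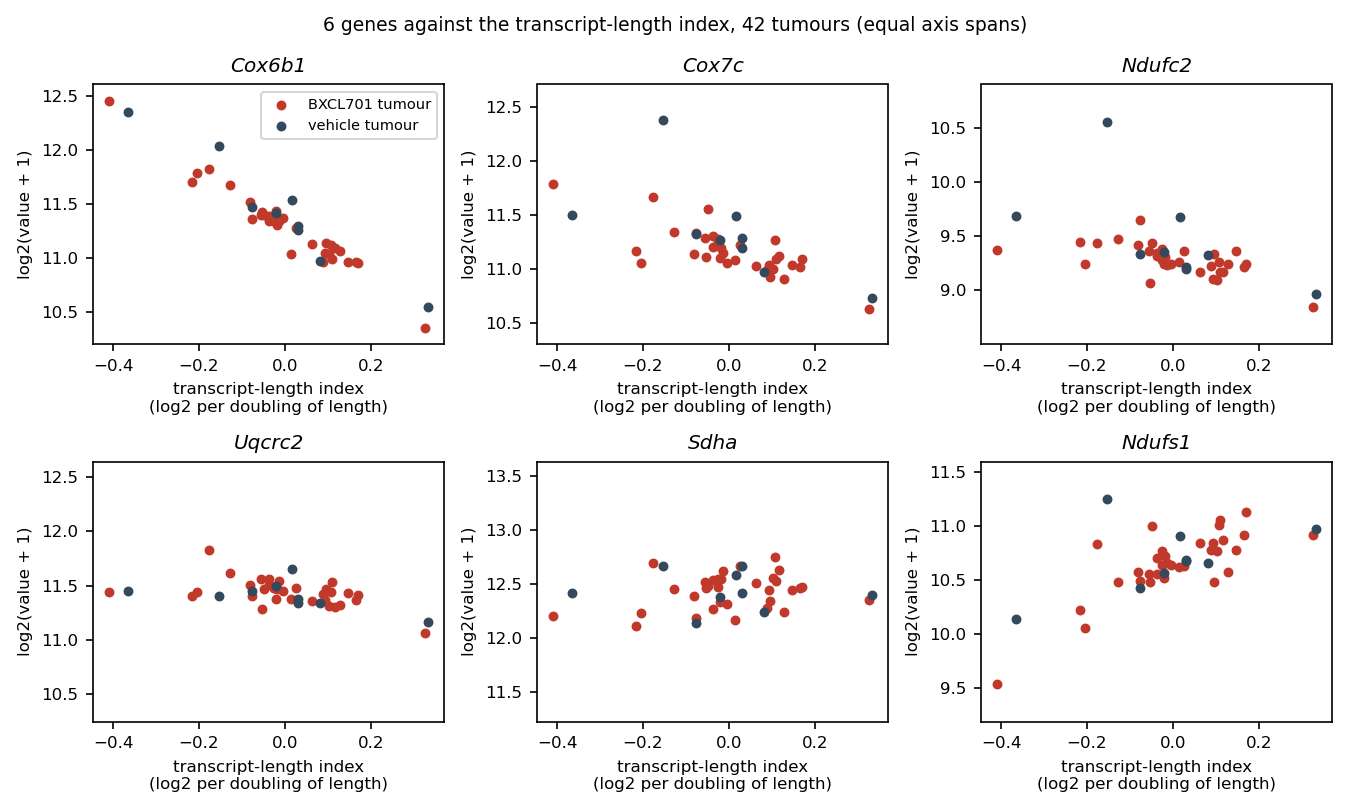
Level of 6 genes, as log2(value + 1), against the transcript-length index (log2 per doubling of length) in 42 tumours, red for BXCL701 and dark for vehicle, with equal vertical spans. Cox6b1 falls along the axis (r = -0.97), Cox7c, Ndufc2 and Uqcrc2 less closely (r = -0.69, -0.54 and -0.51), Sdha shows no slope past the test (r = 0.18) and Ndufs1 runs upward (r = 0.69).

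On day 14, 5 of the 82 genes fell in BXCL701 tumours relative to vehicle tumours and none rose (12 against 3 tumours, limma across all 16613 genes, adjusted p under 0.05). Over all genes 3.29% passed in either direction and 1.03% passed as lower. The 5 were Ndufc2 of complex I, Uqcrb of complex III, Cox7c and Ndufa4 of complex IV and Atp5f1 of complex V. The difference was negative for 81 of the 82 genes, with a median of -0.40 log2, against -0.01 for all genes, and an unadjusted p under 0.05 was reached by 37, each of them lower, and by 17.8% of all genes. In no gene of the 82 did the 2 arms separate without overlap, against 79 of all genes that lay wholly lower and 140 wholly higher.

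The promoters of 3 of the 5 are shown so that their sequence can be set beside their values, together with that of Cox6a1, a complex IV gene that did not pass on day 14 and was chosen because it carries motifs often found in this gene group. Each line is the 250 bases before the RefSeq transcript start on GRCm38.p6, read 5' to 3' on the gene's strand, in lower case with matches to the nuclear respiratory factor motif GCGCANGCGC, the ETS motif CCGGAAG or the YY1 motif AAGATGGCG, on either strand, in capitals. The windows are chr7:97399753-97400002 (plus strand) for Ndufc2, chr6:11907451-11907700 (minus strand) for Ndufa4, chr13:86046796-86047045 (minus strand) for Cox7c and chr5:115348959-115349208 (minus strand) for Cox6a1.
Ndufc2: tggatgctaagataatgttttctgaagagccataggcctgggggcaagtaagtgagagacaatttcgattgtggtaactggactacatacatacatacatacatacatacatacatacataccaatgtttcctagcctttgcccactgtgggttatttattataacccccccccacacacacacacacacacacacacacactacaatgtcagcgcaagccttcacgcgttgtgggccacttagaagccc
Ndufa4: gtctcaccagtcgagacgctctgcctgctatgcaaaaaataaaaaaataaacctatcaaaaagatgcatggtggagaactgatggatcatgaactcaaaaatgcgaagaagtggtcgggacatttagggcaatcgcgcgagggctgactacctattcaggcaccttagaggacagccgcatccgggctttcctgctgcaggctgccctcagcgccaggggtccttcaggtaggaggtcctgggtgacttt
Cox7c: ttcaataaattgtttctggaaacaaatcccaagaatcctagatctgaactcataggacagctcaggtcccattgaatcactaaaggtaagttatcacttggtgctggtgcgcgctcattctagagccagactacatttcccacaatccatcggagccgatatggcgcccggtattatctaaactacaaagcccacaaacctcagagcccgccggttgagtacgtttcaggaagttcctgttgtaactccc
Cox6a1: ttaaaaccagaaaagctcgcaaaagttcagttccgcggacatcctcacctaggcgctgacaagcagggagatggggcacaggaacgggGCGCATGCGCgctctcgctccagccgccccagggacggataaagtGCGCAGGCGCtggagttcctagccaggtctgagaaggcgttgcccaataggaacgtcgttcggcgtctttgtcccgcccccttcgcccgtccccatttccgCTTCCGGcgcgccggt
The printed bases of Cox6a1 hold the nuclear respiratory factor motif at 2 places and the ETS motif at 1. Those of Ndufc2, Ndufa4 and Cox7c hold none of the 3 motifs, which is no contrast between called and other genes. A promoter sequence was matched for 65 of the 82 genes. In windows from 250 bases before to 50 after the start, the nuclear respiratory factor motif was found in 17 of the 65 (26.2%), against 9.92% of the 11794 promoters of genes past the limit on low values and 5.19% of all 27025. The YY1 motif was found in 7 (10.8%, against 3.02% and 1.64%) and the ETS motif in 16 (24.6%, against 17.5% and 9.93%). The CCAAT motif was found in 28 (43.1%, against 41.1% of all promoters). At least 1 of the first 3 was present in 34 genes (52.3%, against 27.1% of genes past the limit), so that 31 of the 65 held none. The 4 motifs do not contain one another, and a match is a stretch of letters and not a binding site shown by data.

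Ndufc2 (chr7:97400003-97407802, plus strand, GRCm38) had log2 levels with a lowest of 9.17, a median of 9.25 and a highest of 9.65 in the 12 BXCL701 day 14 tumours, against 9.68, 10.55 and 9.34 in the 3 vehicle tumours. Vehicle replicates 1 and 2 lay above every BXCL701 tumour, and replicate 3 lay among them. The means were 9.30 ± 0.14 in BXCL701 tumours and 9.86 ± 0.63 in vehicle tumours (SD), and the difference was -0.55 ± 0.14 (SE; limma, adjusted p = 0.0253). That SE uses a spread pooled over all 14 groups and not the wider spread of the vehicle tumours, and so it is for the genes that follow. Atp5f1 (chr3:105942698-105960099, minus strand), which encodes subunit b of the stalk that holds the ATP synthase head, ran from 11.76 through a median of 11.97 to 12.28 in BXCL701 tumours, against 12.50, 12.79 and 11.87 in vehicle tumours. Again 2 of the 3 vehicle tumours lay above every BXCL701 tumour. Its means were 11.98 ± 0.14 in BXCL701 tumours and 12.39 ± 0.47 in vehicle tumours, and its difference -0.41 ± 0.11 (limma, adjusted p = 0.0349).

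In the other 3 genes only vehicle replicate 2 lay above every BXCL701 tumour. Ndufa4 (chr6:11900292-11907497, minus strand), first described with complex I and now assigned to complex IV, ran from 10.82 through 11.08 to 11.59 in BXCL701 tumours, against 11.52, 12.30 and 11.15 in vehicle tumours. Its difference was -0.53 ± 0.15 (limma, adjusted p = 0.0417). Cox7c (chr13:86044816-86046904, minus strand) ran from 10.99 through 11.14 to 11.67 in BXCL701 tumours, against 11.49, 12.38 and 11.33 in vehicle tumours, with a difference of -0.54 ± 0.15 (limma, adjusted p = 0.0421). Uqcrb (chr13:66900617-66905378, minus strand), a small complex III subunit near the quinone site, ran from 10.59 through 10.79 to 11.39 in BXCL701 tumours, against 11.28, 11.75 and 10.95 in vehicle tumours. Its difference was -0.51 ± 0.15 (limma, adjusted p = 0.0455). The highest BXCL701 tumour was 1 h replicate 1 for all of the 5 but Ndufc2, whose highest was 0 h replicate 2.

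These calls rested on vehicle replicate 2. Without it, 0 of the 82 genes passed (1 at an unadjusted p under 0.05), where 0.00602% of all genes did, and the median difference was -0.16. Ndufc2 then differed by -0.20 (limma, adjusted p = 0.929), Atp5f1 by -0.20 (0.902), Ndufa4 by -0.21 (0.984), Cox7c by -0.21 (0.984) and Uqcrb by -0.30 (0.889). Other libraries moved the count as well. It was 1 without BXCL701 1 h replicate 3 (2.75% of all genes passed) and 3 without BXCL701 0 h replicate 2 (3.5%). It was 2 without vehicle replicate 1 (1.31%). It was also 2 without any one of the BXCL701 tumours 0 h replicates 1 and 3, 1 h replicate 2, 8 h replicate 2 and 16 h replicates 1 and 3 (2.41% to 2.71%). It was 25 without vehicle replicate 3, where 12.2% of all genes passed, and 11 without BXCL701 1 h replicate 1 (3.69% of all genes), the 5 among them in both cases. A fit to the libraries of this comparison alone gave 0, where 31 stood at an unadjusted p under 0.05 and 0.00602% of all genes passed. One with no limit on low values gave 2, where 1.56% of 29467 genes passed. On log2 FPKM values 3 of the 82 passed, as did 3.45% of all genes. The transcript-length index was -0.18 to 0.17 in BXCL701 tumours and -0.15 to 0.02 in vehicle tumours. With the index as a covariate 20 genes fell, the 5 among them, where 17.7% of all genes passed and 9.99% passed as lower. Ndufc2 then differed by -0.47 (limma, adjusted p = 0.00922), and the median difference of the 82 was -0.20. The mean level of the skeletal muscle genes was 2.07 to 13.96 in BXCL701 tumours and 7.22 to 10.04 in vehicle tumours. With the muscle, keratinocyte and adipocyte levels as covariates 4 of the 5 passed, as did 3.18% of all genes.

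The negative differences were spread over the complexes. The median was -0.47 in complex IV, -0.41 in complexes I and V, -0.30 in complex III and -0.24 in complex II, and all 35 complex I genes were negative. The next genes in order of p, none of which passed, were the complex I accessory subunit Ndufc1 (-0.60, limma, adjusted p = 0.0623), Cox6c (-0.53, 0.0684), a small complex IV subunit, and Cox5a (-0.57, 0.0707), a matrix-side complex IV subunit that binds thyroid hormone. None of the catalytic and core subunits named here passed. In complex I, Ndufs1 differed by -0.08 (adjusted p = 0.899) and the NADH-binding subunit Ndufv1 by -0.22 (0.568). Sdha was at 0.00 (0.994) and was the only positive gene, and the iron-sulphur subunit Sdhb was at -0.27 (0.538). Uqcrc1, a core protein of complex III, differed by -0.15 (0.799) and Uqcrfs1 by -0.24 (0.344). Cox4i1 differed by -0.50 (0.237), Atp5b by -0.17 (0.554) and the rotor subunit Atp5c1 by -0.22 (0.358).

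**Figure D4:**
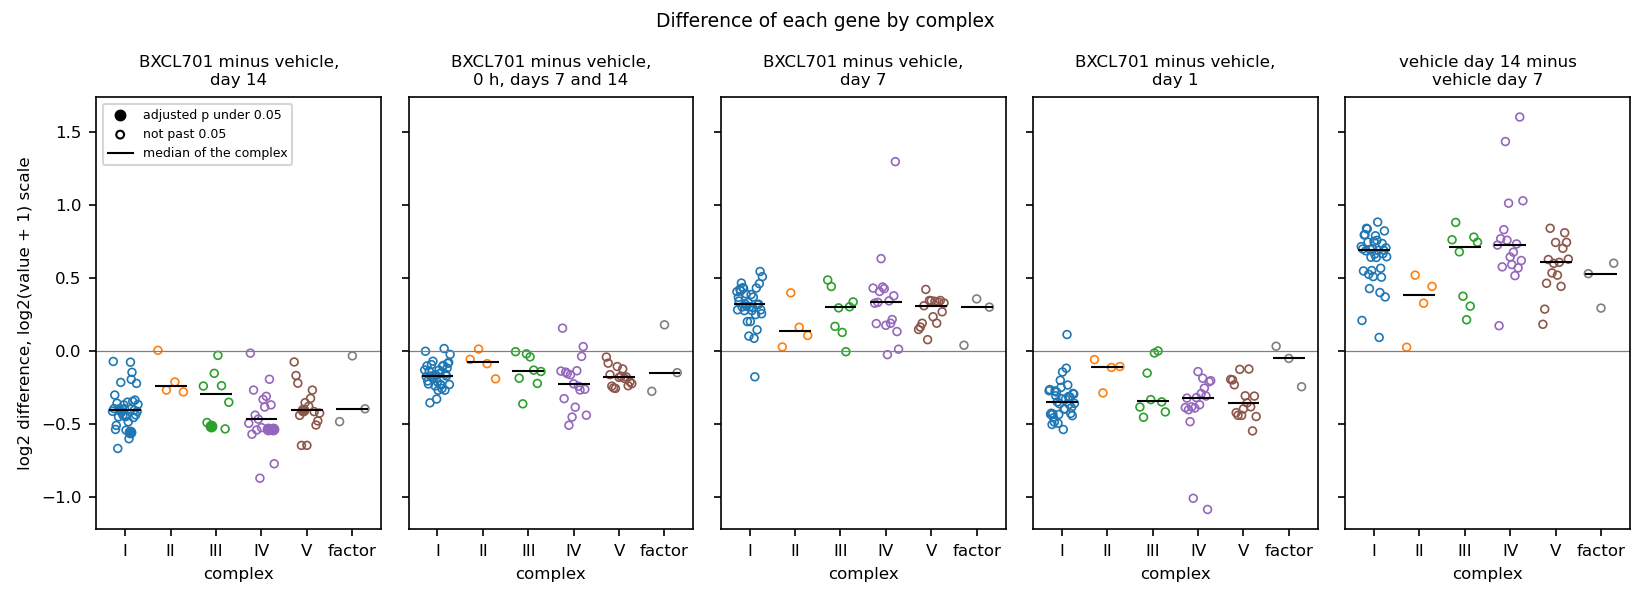
Log2 difference of each of the 82 genes, grouped by complex, in 5 comparisons, with filled points past an adjusted p of 0.05, open points not past it and a line at each complex's median. The day 14 panel lies below 0 for 81 genes with 5 filled points, that of day 7 over 0 for 79 with none filled, and that of vehicle day 14 minus vehicle day 7 over 0 for all 82 with none filled.

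Other genes of the pathway were examined in the same day 14 fit, in which 3.29% of all genes passed and 1.03% passed as lower. Of the 13 mitochondrially encoded subunits 2 fell and none rose, with a list median of 0.01. These were the complex I subunits mt-Nd3, at 11.33 ± 0.22 in BXCL701 tumours and 12.30 ± 0.95 in vehicle tumours (difference -0.97 ± 0.24, limma, adjusted p = 0.0207), and mt-Nd6, at 12.99 ± 0.26 in BXCL701 tumours and 13.50 ± 0.19 in vehicle tumours (-0.51 ± 0.14, adjusted p = 0.0360). Of 43 assembly factors 2 fell, with a list median of -0.18: Ndufaf2, a complex I assembly factor, at 8.24 ± 0.17 in BXCL701 tumours and 8.91 ± 0.71 in vehicle tumours (-0.67 ± 0.18, adjusted p = 0.0295), and Sdhaf4, a complex II assembly factor, at 7.92 ± 0.21 in BXCL701 tumours and 8.56 ± 0.70 in vehicle tumours (-0.63 ± 0.17, adjusted p = 0.0306). Of 12 regulators of mitochondrial biogenesis 1 rose, Pprc1, a PGC-1-related coactivator, at 10.71 ± 0.15 in BXCL701 tumours and 10.15 ± 0.46 in vehicle tumours (0.56 ± 0.13, adjusted p = 0.0136), with a list median of 0.01. None passed among the 4 carriers (cytochrome c and the phosphate and nucleotide carriers, median -0.30), the 13 citric acid cycle genes (-0.10) or the 13 glycolysis genes (-0.21). Short, abundant genes of other machinery lay lower as well: of 77 mitochondrial ribosomal protein genes 2 fell (median -0.27), and of 95 cytosolic ribosomal protein genes 7 fell (median -0.48). Without vehicle replicate 2 none of these calls remained, mt-Nd3 being at -0.43 (adjusted p = 0.86), mt-Nd6 at -0.41 (0.594), Ndufaf2 at -0.29 (0.924), Sdhaf4 at -0.27 (0.927) and Pprc1 at 0.33 (0.588). Without vehicle replicate 1 the calls of mt-Nd6, Ndufaf2, Sdhaf4 and Pprc1 were lost too (adjusted p 0.058, 0.0686, 0.088 and 0.0536), and that of mt-Nd6 also without any of 5 single BXCL701 tumours (0.0511 to 0.057).

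Cell-type markers were examined in the same comparison, in which 3.29% of all genes passed in either direction. Of 13 neutrophil genes 8 rose (median 1.54), of 8 macrophage genes 2 rose (0.49) and of 7 T cell genes 1 rose (1.07). Without vehicle replicate 2, 1 of these 8 neutrophil calls remained and none of the macrophage or T cell calls, and the T cell call was lost without vehicle replicate 1 too. No gene passed among 14 skeletal muscle genes (-0.58), 12 keratinocyte genes (-1.30), 10 adipocyte genes (0.91), 6 fibroblast genes (-0.03), 4 epithelial genes (-0.08), 5 red blood cell genes (-0.40) or the measured brown fat gene (0.19). The part of a changed cell makeup in the lower oxidative phosphorylation genes was not tested.

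At 0 h, where the arms share the hour, none of the 82 genes passed over days 7 and 14 together (6 BXCL701 against 6 vehicle tumours; 5 at an unadjusted p under 0.05, as were 10.8% of all genes). Over all genes 0.512% passed. The difference was negative for 77 genes, with a median of -0.17, against -0.02 for all genes. Uqcrb, whose log2 level was 10.63 ± 0.32 in BXCL701 tumours and 10.99 ± 0.51 in vehicle tumours, had the smallest p (-0.36 ± 0.13, limma, adjusted p = 0.222). Cox7b, a small complex IV subunit, was at 10.68 ± 0.19 in BXCL701 tumours and 10.93 ± 0.32 in vehicle tumours (-0.24 ± 0.09, adjusted p = 0.265), and Atp5f1 at 11.86 ± 0.16 in BXCL701 tumours and 12.12 ± 0.43 in vehicle tumours (-0.26 ± 0.10, adjusted p = 0.279). The positive genes of smallest p were Atp5sl (0.18), Cox4i2 (0.16) and the complex I core subunit Ndufs3 (0.02). Neutrophil genes differed here too, 6 of 13 higher (median 1.49), of which 3 to 6 remained when any one library was left out.

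On day 7 the differences had the opposite sign. None of the 82 genes passed (7, or 8.54%, at an unadjusted p under 0.05, each higher, against 9.87% of all genes), where 0.00602% of all genes did, and 79 were positive, with a median of 0.31, against -0.03 for all genes. Ndufs8, an iron-sulphur subunit of complex I, ran from 9.78 through a median of 10.41 to 11.69 in the 12 BXCL701 tumours, against 10.26, 9.65 and 9.9993 in the 3 vehicle tumours. The vehicle tumours lay in the lower part of the BXCL701 range. Its difference was 0.54 ± 0.23 (limma, adjusted p = 0.493). Ndufa1, an accessory subunit of the complex I membrane arm, differed by 0.40 ± 0.17 and Uqcr10 by 0.48 ± 0.21, both with the same adjusted p. The 3 negative genes were Ndufs1 (-0.18 ± 0.19, adjusted p = 0.642), Cox7a1 (-0.03) and Uqcrfs1 (-0.01).

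The median was 0.32 in complex I, 0.13 in complex II, 0.30 in complex III, 0.33 in complex IV and 0.31 in complex V. The mitochondrial ribosomal proteins (73 of 77 positive, median 0.23) and the cytosolic ribosomal proteins (87 of 95 positive, median 0.29) had the same sign, with none past the test. The transcript-length index was -0.41 to 0.33 in BXCL701 tumours and 0.03 to 0.33 in vehicle tumours, and with it as a covariate the median difference of the 82 genes was 0.00.

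On day 1 the sign was that of day 14. None of the 82 genes passed (7 at an unadjusted p under 0.05, against 2.63% of all genes), nor did any of all genes (0%), and 80 differences were negative with a median of -0.33, against 0.03 for all genes. Atp5k, the small membrane subunit e of ATP synthase, ran from 8.68 through a median of 9.08 to 9.34 in the 9 BXCL701 tumours, against 9.09, 10.47 and 9.22 in the 3 vehicle tumours. Vehicle replicate 2 alone lay above every BXCL701 tumour. The difference was -0.55 ± 0.23 (limma, adjusted p = 0.906). Cox5b, the zinc-binding complex IV subunit, differed by -0.48 ± 0.22 and Ndufb7 by -0.54 ± 0.25, with the same adjusted p. The 2 positive genes were Ndufs1 (0.11, adjusted p = 0.922) and Atp5s (0.03, 0.976). The transcript-length index was -0.22 to 0.15 in BXCL701 tumours and -0.37 to 0.03 in vehicle tumours. With the index as a covariate the median difference was -0.10, and without the tumours of most extreme index, vehicle replicate 2 among them, it was -0.05. The 13 mitochondrially encoded subunits went the other way on day 1, 12 positive with a median of 0.50 and none past the test.

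Single hours had the sign of their day, apart from 0 h of day 7. Against the vehicle tumours of the same day, the median difference of the 82 genes was -0.12 at 1 h, -0.52 at 8 h and -0.33 at 16 h of day 1. It was -0.03 at 0 h, 0.29 at 1 h, 0.62 at 8 h and 0.36 at 16 h of day 7, and -0.32, -0.33, -0.45 and -0.48 at the same hours of day 14. These comparisons share their vehicle tumours within a day. In 10 of the 11, none of the 82 genes passed. Among all genes 0%, 0% and 0.012% passed at 1, 8 and 16 h of day 1, 0%, 0%, 0.301% and 0% at 0, 1, 8 and 16 h of day 7, and 0.783%, 0.789%, 1.25% and 0.0722% at those hours of day 14. At 8 h of day 14 Atp5f1 fell, at 11.85 ± 0.08 in BXCL701 tumours and 12.39 ± 0.47 in vehicle tumours (-0.54 ± 0.14, n = 3 each, limma, adjusted p = 0.0449). Without vehicle replicate 2 it was at -0.34 (adjusted p = 0.517), and the call was lost without any other of these 6 tumours (0.076 to 0.168) but vehicle replicate 3. Without that tumour 15 of the 82 genes passed, and the share of all genes in that fit is not given here. At an unadjusted p under 0.05 stood 50 genes at 8 h of day 1, 61 at 8 h of day 7 and 0 to 30 at the other hours, against 16.5%, 30.9% and 0.656% to 14.3% of all genes.

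Within the BXCL701 arm, the hours of days 7 and 14 were compared with 0 h of the same days (6 tumours each). No gene of the 82 passed at 1 h (3 at an unadjusted p under 0.05, against 2.44% of all genes; 0.012% of all genes passed), at 8 h (5, against 9.16%; 0.132% passed) or at 16 h (2, against 2.29%; 0.00602% passed). The median difference was 0.14 at 1 h, 0.25 at 8 h and 0.10 at 16 h, with 76, 77 and 75 positive genes. Cox7b was at 10.93 ± 0.23 at 8 h and 10.68 ± 0.19 at 0 h (0.25 ± 0.09, limma, adjusted p = 0.410). Ndufa6, a complex I accessory subunit, differed by 0.39 ± 0.17 (adjusted p = 0.50) and Atp5j, a peripheral-stalk subunit of ATP synthase, by 0.23 ± 0.10 (0.507). The negative genes of smallest p were Ndufs1 (-0.19), Cox4i2 (-0.38) and Uqcrfs1 (-0.05). All 13 glycolysis genes were positive at 8 h too, with a median of 0.46 and none past the test.

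In vehicle tumours the median of the genes was lower on day 7 than on either other day. In vehicle day 14 against vehicle day 7, all 82 differences were positive with a median of 0.65, and 63 had an unadjusted p under 0.05, against 15.8% of all genes, though no gene passed the adjusted test, as was so for all genes (0%). Cox7b was at 11.17, 11.39 and 10.99 on day 14, against 10.80, 10.54 and 10.68 on day 7. Its difference was 0.51 ± 0.13 (limma, adjusted p = 0.119), and those of Ndufc2 (0.69 ± 0.18) and Cox7c (0.73 ± 0.19) had the same adjusted p. In vehicle day 7 against vehicle day 1, 79 of 82 were negative with a median of -0.58 and 49 at an unadjusted p under 0.05, against 18.4% of all genes, again with none past the adjusted test (0% of all genes). The smallest p-values were those of the accessory subunit Ndufa3 (-0.87), Ndufs8 (-0.83) and Cox6b2 (-1.21), each with an adjusted p of 0.263. All 14 skeletal muscle genes were negative there, with a median of -3.12. Their mean level was 2.37, 9.28 and 10.21 in the vehicle tumours of day 7 and 9.45, 9.75 and 11.67 in those of day 1. A single day 7 tumour thus lay far below the rest. The transcript-length index was 0.0315 to 0.3333 in the vehicle tumours of day 7. It was lower in every vehicle tumour of day 14 (-0.1524 to 0.0167) and of day 1 (-0.366 to 0.0304). Neither of these comparisons was fitted with the index as a covariate, so its part in them was not tested.

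Between vehicle day 14 and vehicle day 1 the difference was small. The median was 0.07, 50 genes were positive and 32 negative, and none passed (6 at an unadjusted p under 0.05, against 1989 of all 16613; 0.0602% of all genes passed). Uqcrb was at 11.33 ± 0.40 on day 14 and 10.71 ± 0.21 on day 1 (0.62 ± 0.18, limma, adjusted p = 0.181). Atp5s differed by 0.67 ± 0.24 (adjusted p = 0.255) and Ndufc2 by 0.45 ± 0.18 (0.307). The negative genes of smallest p were Ndufa10, a complex I accessory subunit (-0.27), Uqcrc1 (-0.35) and Cox4i2 (-1.15). Of the mitochondrially encoded subunits 2 of 13 rose, mt-Nd6 (13.50 ± 0.19 on day 14 and 12.47 ± 0.22 on day 1, 1.03 ± 0.18, adjusted p = 0.0304) and mt-Nd1 (15.71 ± 0.16 on day 14 and 15.10 ± 0.05 on day 1, 0.61 ± 0.12, adjusted p = 0.0336), with a list median of 0.62. Both calls were lost without vehicle day 14 replicate 1 or 2 or vehicle day 1 replicate 1 or 2, and that of mt-Nd1 also without vehicle day 1 replicate 3 (adjusted p 0.0512 to 0.367).

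Within the BXCL701 arm, day 14 was compared with day 7 at matched hours (12 tumours each). The median was -0.05, 20 genes were positive and 62 negative, and none passed, with 0 at an unadjusted p under 0.05, against 5.03% of all genes, and 0.012% of all genes past the adjusted test. The smallest p-values were those of Atp5g2 (-0.25), Ndufv3, an accessory subunit of the complex I NADH-binding module (-0.23), and Ndufa10 (-0.15) among the negative genes and of Ndufs1 (0.19), Uqcrc2 (0.06) and Cox7a1 (0.28) among the positive ones, all with a limma adjusted p of 0.960. Day 7 against day 1 at 1, 8 and 16 h gave a median of 0.19 (10 at an unadjusted p under 0.05, against 16.4% of all genes, and 0.12% of all genes past the adjusted test), with Uqcrb nearest to passing (0.38 ± 0.11, adjusted p = 0.0940). Day 14 against day 1 gave a median of 0.01 (3 at an unadjusted p under 0.05, against 18.1% of all genes, and 1.27% of all genes past the adjusted test), with Cox6b2 (-0.71, adjusted p = 0.135) and Cox4i2 (-1.02, 0.156) at the smallest p.

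The change of sign between the days was tested as the day 14 difference minus the day 7 difference. No gene of the 82 passed (smallest adjusted p 0.178), nor did any of all genes (0%), while 60 of the 82 had an unadjusted p under 0.05, each negative, against 15.6% of all genes. The median was -0.70 and 81 were negative. Ndufc1 had -0.97 ± 0.26 (limma, adjusted p = 0.178), Cox7c -0.75 ± 0.21 (0.183) and Cox7b -0.50 ± 0.14 (0.186), and Ndufs1 alone was positive at 0.10 (0.892). This quantity is the BXCL701 difference between the days (median -0.05) less the vehicle one (median 0.65), and so rests mostly on the vehicle tumours, 3 a day. With the index held as a covariate its median was -0.19.

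The isoforms of complex IV behaved unlike the rest. Cox6a2, the heart and skeletal muscle form, was at 0.76, 6.52 and 4.32 in BXCL701 day 14 tumours of 0 h and at 10.99, 6.98 and 7.71 in those of 1 h, against 6.76, 5.35 and 6.99 in vehicle day 14 tumours. The BXCL701 tumours therefore lay both far below and far above the vehicle tumours, and the day 14 difference was -0.54 ± 1.29 (limma, adjusted p = 0.897). Cox8b was at 8.67 in the 1 h tumour in which Cox6a2 was highest and was listed at 0 in 2 other BXCL701 day 14 tumours, against 3.89, 3.95 and 4.47 in vehicle tumours. Cox7a1 was highest in that same tumour, at 7.32, against 5.07, 5.09 and 4.84 in vehicle tumours.

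Of the isoforms, Cox6a2 and Cox8b followed the skeletal muscle genes closely, and others did so less closely. Over the 42 tumours, the mean level of 14 muscle genes had r = 0.96 and rho = 0.97 with Cox6a2 (permutation p = 1e-05, adjusted p = 2.41e-05; 0.97 without the 2 farthest tumours) and r = 0.85 and rho = 0.93 with Cox8b (0.88 without them). With Cox7a1 it had r = 0.39 and rho = 0.37 (permutation p = 0.0108, adjusted p = 0.0216), with Ndufa4l2 r = 0.72 and rho = 0.67, and with Cox4i2 r = 0.51 and rho = 0.51 (permutation p = 0.00053). Ndufa4l2 and Cox4i2 rose with the keratinocyte level too (r = 0.60 and 0.49). Cox7a1 and Cox4i2 also had r = -0.56 and -0.59 with the transcript-length index. The forms used by most tissues did not follow the muscle level: Cox6a1 had r = 0.05 (permutation p = 0.732), Cox8a 0.06 (p = 0.713) and Cox7a2 0.22 (p = 0.156). In all, 8 of the 82 genes had an adjusted p under 0.05 with the muscle level, and the share of all genes is not given here. Among the 8, the complex II genes Sdha and Sdhc fell as the muscle level rose (r = -0.44 and -0.46, permutation adjusted p = 0.00654 and 0.00475). Cox6b2 rose with it (r = 0.41, adjusted p = 0.0153). The median deviation of all 82 had r = 0.07 with the muscle level.

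**Figure D5:**
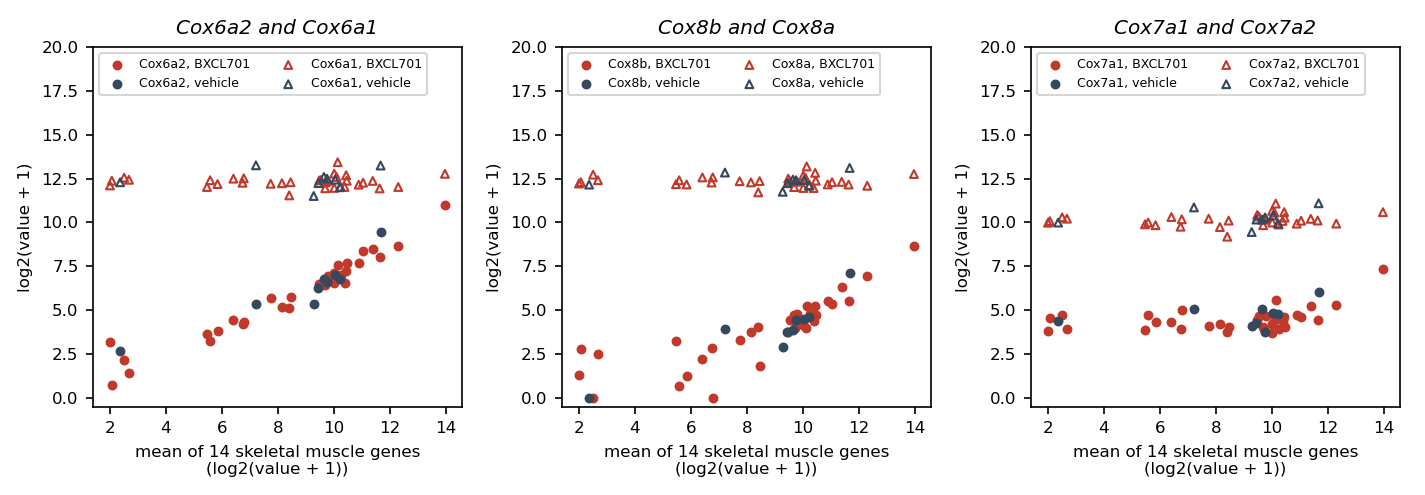
Muscle isoforms (filled circles) and the isoforms of most tissues (open triangles) of 3 complex IV subunits, as log2(value + 1), against the mean level of 14 skeletal muscle genes in 42 tumours, red for BXCL701 and dark for vehicle. Cox6a2 and Cox8b rise along the axis (r = 0.96 and 0.85) while Cox6a1, Cox8a and Cox7a2 show no slope past the test (r = 0.05, 0.06 and 0.22).

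None of the isoforms passed on day 14. Of the forms used by most tissues, Cox6a1 differed by -0.44 (limma, adjusted p = 0.267), Cox6b1 by -0.47 (0.276), Cox8a by -0.19, Cox7a2 by -0.38 and Cox7a2l by -0.40 (0.193). Of the restricted forms, Cox6b2 differed by -0.87 ± 0.34 (0.156), Cox4i2 by -0.02, Cox7a1 by -0.33, Cox8b by -0.37 and Ndufa4l2 by -0.77 ± 0.93 (0.749). Ndufa4, the paralogue of Ndufa4l2, was among the 5 that fell.

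The promoter of Cox8b is given for comparison with that of Cox6a1, since one followed the muscle genes and the other did not. It is the 250 bases before the RefSeq start, chr7:140900447-140900696 on the minus strand of GRCm38.p6, with no match to the 3 motifs searched.
Cox8b: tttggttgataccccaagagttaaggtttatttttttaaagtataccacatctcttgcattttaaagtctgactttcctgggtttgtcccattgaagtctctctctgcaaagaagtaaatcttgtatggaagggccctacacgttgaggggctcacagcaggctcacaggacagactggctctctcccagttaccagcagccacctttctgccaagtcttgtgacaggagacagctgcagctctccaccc

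Likeness of pattern was measured as the Pearson correlation of log2 levels over the 42 tumours. The genes most like Ndufc2, which had the smallest p on day 14, were Sec61b (0.89), a subunit of the protein-conducting channel of the endoplasmic reticulum, Rab11a (0.89), 1810037I17Rik (0.89), Naca (0.88) and Bloc1s2 (0.88). Those most like Ndufs1 were Dld (0.93), the dihydrolipoamide dehydrogenase of mitochondrial complexes, the splicing factor Srsf1 (0.93), Krr1 (0.93), Eif4g2 (0.92) and the mitochondrial fission protein Dnm1l (0.92). For Cox6a2, chosen after its values were seen, they were Pgam2 (0.97), the muscle form of phosphoglycerate mutase, Apobec2 (0.97), Fitm1 (0.97), Hfe2 (0.96) and Pygm (0.96), the muscle glycogen phosphorylase.

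Some of these levels are uncertain because genes share sequence. Exons of 29 of the 82 genes overlap those of another annotated gene, on the opposite strand for 26. Among them are Atp5f1 with Wdr77, Uqcrb with Gm10767, Cox6a2 with Itgad, Ndufa4l2 with Shmt2 and Ndufs1 with Eef1b2. Whether the counting used strand is not given in the sources used here, and processed pseudogene copies of these genes could share their reads.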

How the data were processed

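RNA libraries from 42 tumours were analysed from the deposited tables. The submitters' processing notes name the GRCm38 build, Bowtie (0.12.9) and Trimmomatic (0.36). For the quantification tool, annotation, strand setting and scaling, the entry is: not given in the sources used here. Signal values in the deposited gene table are per gene, and since 99.89% of its values of 10 or more were not whole, they were treated as estimated reads scaled per library rather than as counts. The deposited log2 FPKM table was made by the authors from the same libraries and served for levels between genes and as an alternative. A second deposited copy of it was identical (largest difference 0). No column belonged to an unlisted sample (0).

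The members and the gene lists were chosen with earlier results of these data known. No scaling was added before the log2(value + 1) step, and limma 3.58.1 (R 4.3.3, with version 1.17.8 of data.table) fitted the 42 libraries at once, using 14 group coefficients that left 28 residual degrees of freedom, with an intensity trend and robust moderation. The Benjamini-Hochberg adjustment ran over the 16613 genes separately for 25 comparisons, the threshold was 0.05, and harvest hours were weighted equally. Since the values were not counts, no count model was run. The procedure was tested on simulated data with independent genes and the same spread in every group. The planted changes were larger than the differences of the members called on day 14. The simulation therefore cannot show how those calls behave where groups spread unequally.

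Named with values were the members past the threshold, or the 3 of smallest p in a direction where fewer than 3 passed, 12 fixed core members (1 of them is not reported here), the isoform pairs, the 2 highest and 2 lowest of each complex (chosen by mean log2 FPKM), the 5 most and 5 least variable, and those at the limit on low values. Levels between genes are printed as medians because Cox8b is listed at 0 in 3 tumours. Correlations across tumours were tested by permutation (100000 draws, both signs) with Benjamini-Hochberg adjustment over 164 relations, using Python 3.11.15, pandas 2.3.3 and SciPy 1.17.1, and figures used matplotlib 3.10.9. The transcript-length index left the members out and used genes of mean value 100 or more. Exon lengths (known for 99.7% of genes) and positions are GENCODE M21 on GRCm38, and promoters are RefSeq on GRCm38.p6. The read depth is unknown, so precision rests on the spread between mice of the same group. The fit pools this spread per gene over the 14 groups. An SE therefore does not measure the spread of any single group, such as vehicle day 14. For Ndufc2 the SD was 0.63 in that group, against 0.14 in BXCL701 day 14 tumours.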

Additional observations from a re-analysis of the deposited data

How the results depend on the processing

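The 5 lower genes of day 14 were also 5 with median-of-ratios scaling (3.56% of all genes passed) and with a pseudocount of 5 (3.12%). They were 4 with the neighbouring-tissue levels as covariates (3.18%). They were 2 with no limit on low values (1.56% of 29467 genes passed) and 3 in the log2 FPKM table (3.45% of all genes). They were 0 with only the libraries of the comparison (0.00602%), where 31 stood at an unadjusted p under 0.05. They were 20 with the length index held as a covariate (17.7%) and 15 without the 4 libraries of most extreme index (6.13%). Leaving out each library gave 0 (without vehicle replicate 2, 0.00602% of all genes) to 25 (without vehicle replicate 3, 12.2%). Of the others, without BXCL701 1 h replicate 3 gave 1 (2.75%) and without BXCL701 1 h replicate 1 gave 11 (3.69%). The index as a covariate gave 1 lower gene at 0 h (Cox7b) and 2 higher genes in vehicle day 14 against day 1 (Uqcrb and Cox6c). Leaving out each library gave 0 to 3 lower genes at 0 h and 0 to 5 higher genes in vehicle day 14 against day 1. It gave 0 to 21 lower genes for the day 14 minus day 7 difference, and each highest count came without vehicle day 14 replicate 3. For the counts of these 3 comparisons the share of all genes is not given here, so they cannot be set against it. In the day 7, day 1, 8 h and BXCL701 day 14 against day 7 comparisons, the count was 0 under every setting run. The cause was not tested.

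Some signs changed. With the index as a covariate Sdha was at -0.0243 on day 14, Ndufs1 at 0.0948 and Uqcrfs1 at 0.0330 on day 7, Ndufs1 at -0.0903 and Atp5s at -0.0601 on day 1, and Ndufs1 at -0.3289 for day 14 minus day 7. With the tissue levels as covariates Sdha was at -0.0666 on day 14 and Uqcrfs1 at 0.0159 on day 7. Without the 4 extreme libraries Ndufs1 was at -0.0495 and Atp5s at -0.0235 on day 1, and Ndufs1 at 0.0334 for 8 h and at -0.0759 for day 14 minus day 7. Leaving out each library gave Sdha -0.1587 to 0.1063 on day 14, Cox7a1 -0.183 to 0.1543 and Uqcrfs1 -0.0662 to 0.0542 on day 7, Ndufs1 -0.0495 to 0.2196 and Atp5s -0.0389 to 0.1328 on day 1. It gave Cox4i2 -0.091 to 0.4069 and Ndufs3 -0.0619 to 0.1353 at 0 h, Uqcrfs1 -0.1136 to 0.0177 for 8 h, and Ndufs1 -0.1168 to 0.2929 for day 14 minus day 7. Of 360 values of named genes under other settings, 335 kept sign and side of the threshold, 12 changed sign and 11 lost a call. Of 684 values with a library left out, 612 kept both, 31 changed sign and 34 lost a call. Only the genes called lower on day 14 had a call to lose. For all other named values, staying without a call with the same sign counted as kept. The totals of 360 and 684 therefore do not measure how stable the calls were. For the other lists and for 8 h of day 14, leaving out each library was chosen after seeing the data. No paired analysis was possible because replicate numbers were given in record order and mark no shared animal, litter or day. Each vehicle group holds 3 tumours, which limits every contrast.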

Other observations

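Of the isoforms with wide spread, Ndufa4l2 and Cox4i2 each resembled a different set of genes over the 42 tumours. The genes most like Ndufa4l2, chosen after its values were seen, were Nradd (Pearson correlation 0.97), Nfatc4 (0.96), Trnp1 (0.96), Gng11 (0.96) and C1qtnf5 (0.96). Those most like Cox4i2 were B3gnt8 (0.87), Pdlim4 (0.87), Thy1 (0.85), Cxx1b (0.85) and Lsp1 (0.85). In BXCL701 day 7 tumours, Ndufa4l2 had log2 levels of 4.02 to 9.54, against 5.48 to 8.62 in vehicle day 7 tumours, and in BXCL701 day 14 tumours 5.27 to 10.11, against 7.07 to 9.68 in vehicle day 14 tumours, so that the arms overlapped on both days.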
